A study of Homo sapiens with 4 samples.

Results

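The genes examined here are 10 genes by which pathologists and oncologists recognise tumours of the ovary and the Müllerian tract: the lineage factors PAX8, PAX2, WT1 and SOX17, the hormone receptors ESR1 and PGR, and the surface or secreted markers MUC16, WFDC2, FOLR1 and MSLN. They were chosen by name, and every probe that the array's annotation gives to 1 of these symbols was taken. This gave 14 probes of 28264, for 10 genes of 19090. Their levels were compared in TOV112D, an established epithelial ovarian cancer cell line, after transfection with a HOXD10-pCDNA plasmid (HD) and in control TOV112D cells (ND). The study's text describes the controls in one place as mock-transfected and in another as carrying the empty pCDNA3 plasmid. HOXD10 is a homeobox transcription factor, and the comparison asks how its overexpression changes the cells' transcripts. The plasmid was introduced transiently into 1 cell line, so that each array averages cells with and without it, and fewer cells expressing a gene cannot be told apart from less RNA per cell. Each group has 2 arrays, and nothing in the labels says that they come from separate cultures. The p-values thus rest on the scatter of 2 arrays a group, which may be technical scatter alone.

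The Müllerian ducts give rise to the oviduct, uterus and upper vagina, and many ovarian carcinomas keep the transcription factors of these epithelia. PAX8 and SOX17 mark secretory cells of the oviduct and endometrium, PAX2 is active in the embryonic urogenital tract, and WT1 is needed to form the gonad and kidney and stains serous carcinomas and mesothelium. ESR1 and PGR are the nuclear receptors for oestrogen and progesterone. MUC16 carries the CA125 epitope and WFDC2 encodes HE4, both of which are measured in serum, while FOLR1, the folate receptor alpha, and MSLN, mesothelin, are cell surface proteins bound by therapeutic antibodies.

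Values are normalized intensities on a linear scale. The lowest value in the table is 50, and a probe listed at 50 has no measured level there. The arrays shared a median of 361, and between 4414 and 5579 probes of each array were at 50. Replicate arrays correlated at 0.990 within ND and 0.995 within HD, across probes. The HOXD10 probe was at 50 on all 4 arrays, so that it did not register the transfected gene. Where this probe lies on the transcript was not known here, so that it checks nothing, and groups follow the labels. By qPCR and western blot, the paper reports higher HOXD10 mRNA and protein in TOV112D cells given the plasmid. Whether those were the samples put on the arrays is not known here. Of 6 epithelial markers, EPCAM and KRT8 (at least 2.03-fold) were higher in HD, KRT19 was lower (665 and 737 in ND, 345 and 297 in HD), KRT18 did not pass, with a log2 fold change of 0.54, and CDH1 and KRT7 were at 50 on all arrays. Their summed level, with CDH1 and KRT7 entered at 50, was 1447 and 1526 in ND and 2759 and 2303 in HD. EPCAM, at 378 and 360 in ND and 1767 and 1469 in HD, made up most of the HD sums. The sum rose by less than EPCAM alone did. Of 7 mesenchymal markers 1 passed on its brightest probe, FN1, which rose from 5237 and 6098 to 12942 and 12555, while its dimmer probe did not pass. The dimmer COL1A2 probe passed, at 50 on both ND arrays and at 74.8 and 71.5 in HD, and its brighter probe did not. For KRT8 and the dimmer COL1A2 probe, ND arrays at 50 add no scatter to the test, so that p may be too small. VIM read 295003 and 334580 in ND and 332614 and 227787 in HD and made up most of the list's sum, which ranged from 318325 to 360513 in ND and from 260905 to 366918 in HD.

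The stretches before the start of 4 of the genes are shown because PAX8, PGR and PAX2 were lower on both HD arrays than on both ND arrays and WFDC2 was not. RefSeq windows were matched for 7 of the 10 genes, and not for SOX17, FOLR1 or MSLN. MSLN and the brighter FOLR1 probes were also lower on both HD arrays than on both ND arrays, so that the windows leave these genes out. Each window shows the 250 bases before the gene's annotated start in GRCh38.p14, written 5′ to 3′ on the gene's strand. PAX8 lies at chr2:113278922-113279171 on the minus strand, PGR at chr11:101129814-101130063 on the minus strand, PAX2 at chr10:100735146-100735395 on the plus strand and WFDC2 at chr20:45469503-45469752 on the plus strand. Capitals mark matches on either strand to TTTAT and to TTTAC, which are cores bound by posterior homeodomain proteins, or to GGTCA, the half-site of nuclear receptors.
PAX8: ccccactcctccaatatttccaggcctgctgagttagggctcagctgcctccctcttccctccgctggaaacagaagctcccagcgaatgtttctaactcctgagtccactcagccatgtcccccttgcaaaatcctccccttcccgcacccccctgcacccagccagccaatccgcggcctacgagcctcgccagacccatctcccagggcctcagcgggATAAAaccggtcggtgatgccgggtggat
PGR: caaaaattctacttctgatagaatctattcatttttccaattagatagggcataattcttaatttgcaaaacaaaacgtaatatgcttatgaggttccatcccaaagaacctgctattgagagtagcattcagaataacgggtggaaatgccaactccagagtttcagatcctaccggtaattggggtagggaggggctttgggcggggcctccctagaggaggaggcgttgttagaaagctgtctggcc
PAX2: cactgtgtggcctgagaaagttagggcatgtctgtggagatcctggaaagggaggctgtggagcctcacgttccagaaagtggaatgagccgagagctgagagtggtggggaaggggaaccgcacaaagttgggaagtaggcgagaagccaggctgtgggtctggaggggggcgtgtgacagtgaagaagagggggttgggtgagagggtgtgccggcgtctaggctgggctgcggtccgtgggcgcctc
WFDC2: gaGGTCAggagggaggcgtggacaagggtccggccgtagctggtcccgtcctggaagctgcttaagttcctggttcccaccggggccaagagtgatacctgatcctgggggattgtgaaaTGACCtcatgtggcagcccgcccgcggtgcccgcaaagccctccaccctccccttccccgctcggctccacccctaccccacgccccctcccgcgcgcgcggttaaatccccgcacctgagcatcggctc
PAX8 held 1 match to TTTAT and WFDC2 held 2 matches to GGTCA, and the PGR and PAX2 windows held 0 of any of these words. Of the windows not shown, 1 match to TTTAT was also held by that of ESR1, whose groups overlapped. TTTAT occurred in 32.7% of 35116 such windows of all genes, TTTAC in 25.2% and GGTCA in 32.6%. The matches describe these letters only.

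None of the 14 probes passed the test. In a limma fit of all probes, 0 had an adjusted p under 0.05, against 13.8% of all probes, and 0 met the study's criteria of an at least 2-fold change with an unadjusted p under 0.05, against 12.4% of all probes. By an unadjusted p alone, 1 probe was under 0.05 (7.14%), against 35.7% of all probes. The identity genes were dim on these arrays: 6 probes were above 50 on all 4 arrays, which is 42.9% of them against 77.7% of all probes, 6 were above 50 on some arrays, and 2 were at 50 throughout. Of all probes above 50 on all arrays, 16.7% passed the test at this threshold. The number at 50 was 4 on ND replicate 1, 4 on ND replicate 2, 8 on HD replicate 1 and 7 on HD replicate 2. In the same order, these are 28.6%, 28.6%, 57.1% and 50% of the identity gene probes. Of all probes, 16.8%, 16.4%, 19.7% and 15.6% were at 50 on these arrays.

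**Figure D1:**
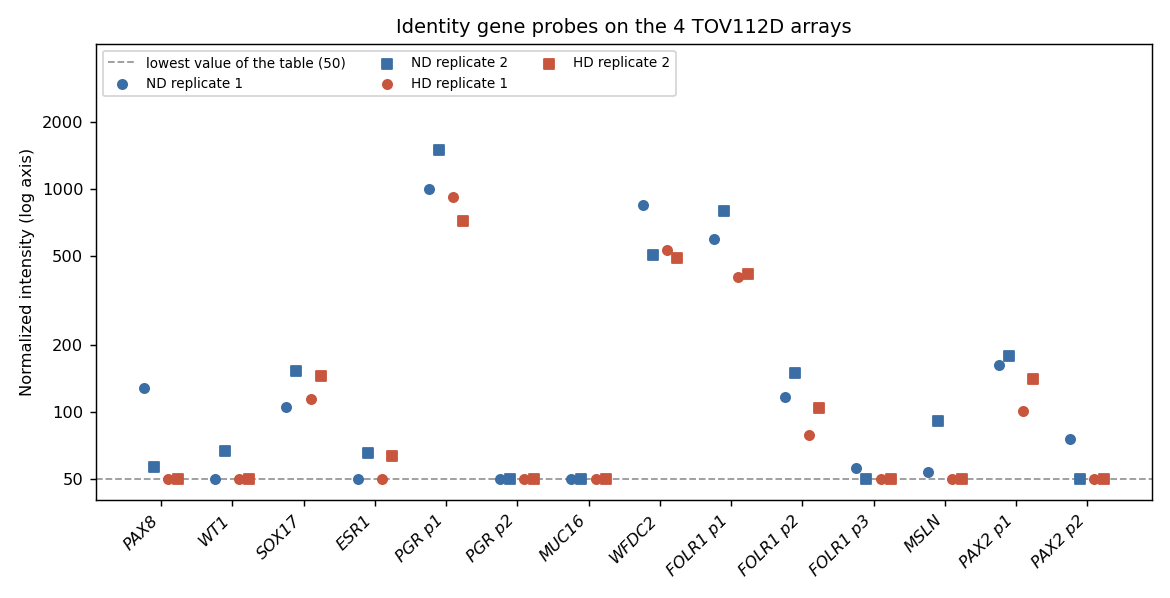
Normalized intensity (log axis) of each probe of the 10 identity genes on each array, with ND in blue and HD in red and the lowest value of the table, 50, as a dashed line. WFDC2, 1 PGR probe and the first FOLR1 probe lie well above 50, and PAX8, WT1, ESR1, MUC16 and MSLN sit at or near 50.

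Among the lineage factors, PAX8 (chromosome 2, 113215997 to 113278921) read 128 and 56.4 on the ND arrays and 50 on both HD arrays. The groups did not overlap, but the ND arrays differed 2.27-fold from each other. Against the lowest value, PAX8 was at least 1.70-fold lower in HD, with a limma adjusted p of 0.435. PAX2 (chromosome 10, 100735396 to 100829944) has 2 probes. The brighter read 162 and 178 in ND and 101 and 140 in HD, with means of 170 ± 11.2 and 121 ± 27.5 (SD, n = 2 each). Both HD arrays lay below both ND arrays, and the log2 fold change was -0.51 (95% interval -1.28 to 0.25), with a limma adjusted p of 0.246. The other PAX2 probe was above 50 on ND replicate 1 alone, at 75.4.

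SOX17, an endoderm and Müllerian epithelial factor, lies on chromosome 8, from 54457935 to 54460892. It read 105 and 152 in ND and 114 and 145 in HD, and the groups overlapped. The means were 128 ± 33.3 and 130 ± 22.2 (SD, n = 2 each), and the log2 fold change of 0.03 had a 95% interval of -0.97 to 1.03. WT1 (chromosome 11, 32387775 to 32435539) was above 50 on ND replicate 2 alone, at 66.5. Its level was therefore not measured on the other 3 arrays.

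The receptors differed in how well they could be measured. ESR1 (chromosome 6, 151656672 to 152129619) read 50 and 65.2 in ND and 50 and 63.4 in HD, so that 1 array of each group carried a value above 50 and the groups overlapped. PGR (chromosome 11, 101029624 to 101129813) read 1001 and 1499 in ND and 920 and 722 in HD on its brighter probe. Both HD arrays were below both ND arrays. The means were 1250 ± 352 and 821 ± 140 (SD, n = 2 each), the log2 fold change was -0.59 (SE 0.302, 95% interval -1.65 to 0.48) and the limma adjusted p was 0.315. The gap between the ND arrays was about as large as the difference between the groups. The other PGR probe was at 50 on all arrays.

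Of the surface and secreted markers, FOLR1 (chromosome 11, 72189709 to 72196323) held the 1 probe with an unadjusted p under 0.05. This probe, the brightest of its 3, read 595 and 801 in ND and 402 and 416 in HD. Both HD arrays lay below both ND arrays and close to each other. The means were 698 ± 146 and 409 ± 10.2 (SD, n = 2 each), 1.69-fold apart on means of log2 values, and the log2 fold change was -0.76 (SE 0.192, 95% interval -1.43 to -0.08) with a limma adjusted p of 0.120. The next FOLR1 probe read 116 and 149 in ND and 78.2 and 104 in HD. It was also without overlap, with a log2 fold change of -0.55 (95% interval -1.41 to 0.31) and a limma adjusted p of 0.264. The dimmest FOLR1 probe was above 50 only on ND replicate 1, at 55.6. These probes carry the same gene symbol and are not replicates of each other.

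WFDC2 (chromosome 20, 45469753 to 45481532) read 847 and 508 in ND and 532 and 489 in HD. The groups overlapped, since HD replicate 1 was above ND replicate 2. The means were 677 ± 240 and 511 ± 30.1 (SD, n = 2 each), and the 1.67-fold gap between the ND arrays exceeded the 1.29-fold difference between the groups on means of log2 values. The log2 fold change was -0.36 (95% interval -1.53 to 0.81). MSLN (chromosome 16, 760734 to 768865) read 53.8 and 90.3 in ND and 50 on both HD arrays. It was at least 1.39-fold lower in HD, with a limma adjusted p of 0.440. MUC16 (chromosome 19, 8848844 to 9065751) was at 50 on all 4 arrays, so that no level of the CA125 gene was measured in either group.

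**Figure D2:**
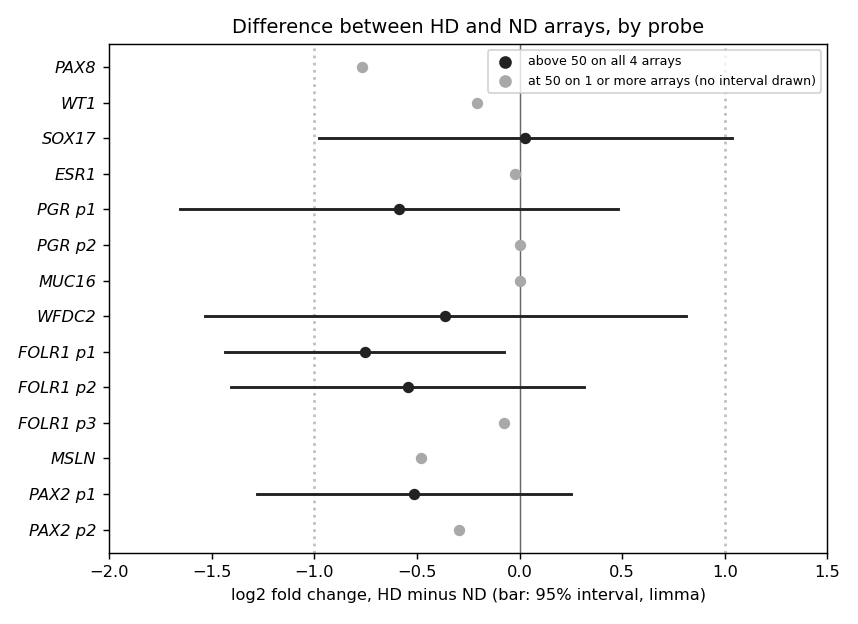
Log2 fold change of each probe, HD minus ND, with the 95% interval from limma drawn for the 6 probes above 50 on all arrays. Grey points are probes at 50 on 1 or more arrays, dotted lines mark a 2-fold difference, and the interval of the brightest FOLR1 probe, -1.43 to -0.08, is the one that leaves out 0.

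Across the 14 probes, the fold change was below 0 for 11, at 0 for 2 and above 0 for 1, and 51.1% of all probes were below 0. PAX8, WT1, MSLN, the dimmer PAX2 probe and the dimmest FOLR1 probe were at 50 on both HD arrays. With HD at the lowest value, their fold change could not lie above 0. Groups did not overlap, with HD lower, for 6 of the 14 (42.9%), against 34.8% of all probes. They did not overlap with HD higher for 0, against 24.9% of all probes. For 8 of the 14 (57.1%) the spread within a group exceeded the difference between groups, which held for 37.6% of all probes. The 6 probes above 50 on all arrays had a median log2 fold change of -0.53, against -0.13 over all such probes, and 4 of them were without overlap and lower in HD, as were 42.1% of all such probes. Of the lineage factors, receptors and surface markers, each class held at least 1 of these 4 probes.

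Whether these probes passed depended on how probes at 50 entered the fit. The spread that limma shares across probes carried 0.543 prior degrees of freedom with all probes and 82.5 when probes at 50 on any array were left out. In that latter fit 47.0% of all probes passed, and so did 4 of the 6 identity gene probes, all lower in HD: the brightest FOLR1 probe (adjusted p 0.00329), the brighter PGR probe (0.0253), the next FOLR1 probe (0.0368) and the brighter PAX2 probe (0.0489). SOX17 and WFDC2 did not pass. Leaving out only the probes at 50 on all arrays let 34.5% of the table pass. Of the identity genes the brightest FOLR1 probe passed, with an adjusted p of 0.0278. The same probe passed after cyclic loess normalization (adjusted p 0.0201), where 31.5% of all probes passed, and after scaling to the 75th percentile (0.0223), where 33.5% did.

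**Figure D3:**
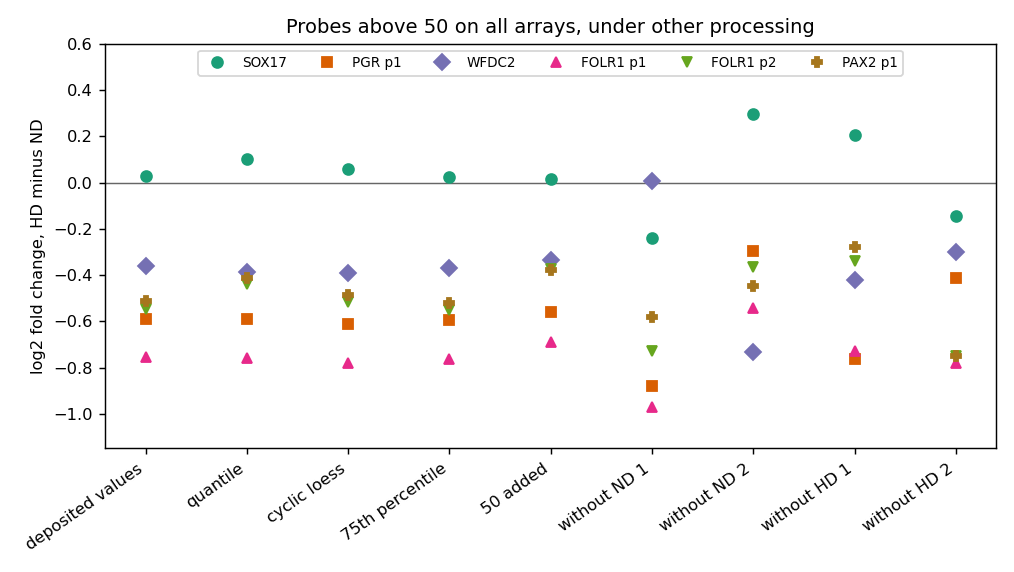
Log2 fold change, HD minus ND, of the 6 probes above 50 on all arrays, for the deposited values, other normalizations, 50 added to each value, and without each array in turn. The FOLR1, PGR and PAX2 probes stay below 0 in every setting drawn, and SOX17 and WFDC2 each lie on both sides of 0. The groups of the FOLR1, PGR and PAX2 probes drawn did not overlap, so that leaving out an array could not turn their sign.

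Genes related to the identity genes were counted in 15 lists, each gene by its brightest probe. Of 218 measured genes, 11 were higher in HD (5.05%) and 16 lower (7.34%), against 6.67% and 7.97% of all genes. The median log2 fold change was -0.11, against -0.05 over all genes. With the mean over a gene's probes 14.7% of the related genes passed, against 18.4% of all genes, and with quantile normalization 19.7% did, against 23.3%. Together with 6 cell type markers, 33 listed genes passed. PER1 and CLDN4 did not pass with quantile normalization (adjusted p 0.0569 and 0.147), PER1, CD44, INHA and SOX12 did not with an intensity trend (0.0600, 0.0658, 0.0635 and 0.0567), and WFDC11 did not without probes at 50 on all arrays (0.0587). Under robust eBayes 9 of the 33 passed: GLRX, INHA, KRT8, OLFM1, PRL, PROM1, SALL4, SPRY1 and TCF21. Without any 1 array, or with the replicate number as a block, 0 probes of the whole table passed, so that these fits say nothing of single genes. The fold changes of 0 of the 33 turned direction in any of them, which is no further support. The block leaves each fold change as it was, and the 33 were picked by their p on these same arrays.

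In the PAX family 0 of 7 genes passed, with a median of -0.45. PAX6, an eye and pancreas factor, had a log2 fold change of -0.66, and PAX4, a factor of pancreatic islets, one of -1.17 with ND arrays at 705 and 314. In the SOX family 1 of 18 passed, SOX12, which was higher by 0.74. Of the Müllerian and urogenital development genes, 21 of 30 were measured, with 3 higher, 2 lower and a median of -0.20. DACH1, a transcriptional cofactor, read 217 and 238 in ND and 708 and 796 in HD, a log2 fold change of 1.72. AMHR2, the receptor for the hormone that makes the Müllerian ducts regress, was at 50 on both ND arrays and read 241 and 181 in HD, at least 4.18-fold higher. TCF21 and OSR1, transcription factors of urogenital mesoderm, fell from 1163 and 1222 to 199 and 189 and from 1214 and 1416 to 327 and 311. The other OSR1 probe was at 50. TBX18 was higher by 1.06 on its brightest probe, and its other probe, at -0.05, did not pass. For RET the brightest probe, at 1.96, did not pass, and the dimmer probe passed in the other direction, at -0.79.

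Among partners and reported targets of WT1, 17 of 19 genes were measured and 2 were lower. SPRY1, an inhibitor of receptor tyrosine kinase signalling, read 257 and 228 in ND and was at 50 on HD replicate 1 and at 51.6 on HD replicate 2, so that its fall is not sized here. WTIP, which binds WT1, had a log2 fold change of -1.24. Of the nuclear steroid receptors and their relatives 8 of 10 were measured and 1 passed. ESRRA, an orphan receptor related to ESR1, fell from 4597 and 5328 to 2348 and 2453, while its dimmer probe, at 0.17, did not pass. ESR2 and ESRRG were at 50 throughout. Among chaperones and coregulators, FKBP5, a co-chaperone of steroid receptors, was the 1 of 17 that passed on its brightest probe. It rose from 1623 and 2007 in ND to 6171 and 5430 in HD, and its other probe rose too. Dimmer probes of HSP90AA1 (log2 fold change 1.19, limma adjusted p 0.0242) and NCOA1 (1.03, 0.0499) passed, while their brightest probes did not.

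Of 24 oestrogen-responsive genes 1 passed, OLFM1, lower with a log2 fold change of -1.88 on its brightest probe. Of its other probes, that at -1.14 passed and that at -0.62 did not. Of 18 progesterone-responsive genes, FKBP5 was higher and PRL and PER1 were lower. PRL, which encodes prolactin, read 36960 and 40484 in ND and 8758 and 8976 in HD. The log2 fold change of PRL was -2.13 on the deposited values, -1.69 after quantile and -1.63 after cyclic loess normalization. PAEP and IGFBP1, markers of secretory endometrium, were at 50 on all arrays. The medians of these lists were -0.06 and -0.02.

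Among 15 mucins, MUC3A passed, with a log2 fold change of -0.91, and its other probe was at 50. MUC1, a membrane mucin of many carcinomas, read 351 and 495 in ND and 1059 and 907 in HD, without overlap and with a limma adjusted p of 0.0837. Of 14 genes with whey acidic protein domains, the class of WFDC2, WFDC11 passed, at 71.7 and 69.0 in ND and at 50 on both HD arrays. In the folate receptors and transporters 0 of 5 passed, with a median of -0.27, and SLC46A1, the proton-coupled folate transporter, had a log2 fold change of -0.52 and FOLR3, a secreted folate receptor, one of -0.36. Of 28 other surface and secreted markers 3 were higher and 3 lower. PROM1, a membrane glycoprotein used as a stem cell marker, rose from 89.6 and 76.5 to 682 and 701. EPCAM, the epithelial cell adhesion molecule, rose from 378 and 360 to 1767 and 1469, and CD24 was higher by 1.24. KLK10, CD44 and CLDN4 were lower, with log2 fold changes of -0.82, -0.54 and -0.70. The dimmer KLK10 probe, at 0.05, did not pass, and the dimmer CD44 probe was at 50.

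Markers of other tumour classes were set beside the identity genes. Of 10 clear cell and mucinous markers GLRX and KRT20 were lower, with log2 fold changes of -2.29 and -1.75. The other GLRX probe, at -0.39 with a limma adjusted p of 0.245, did not pass. Of 14 sex cord, stromal and steroidogenic genes, INHBA was higher by 1.57, INHA was lower at -0.66, and the gonadotrophin receptors FSHR and LHCGR were at 50 throughout. Of 10 germ cell and pluripotency genes, SALL4 rose from 927 and 1008 to 7648 and 6420, and LIN28B was higher by 0.79. The brightest SALL4 probe was the measured one, its other being at 50. Of the mesothelial markers, which WT1 and MSLN share a tissue with, LRRN4 read 57327 and 67048 in ND and 27410 and 24780 in HD and CALB2 1044 and 1281 in ND and 508 and 534 in HD. Both were lower in HD by the limma test, and KRT5 and ITLN1 were at 50 on all arrays. The sum over the 4 markers with a probe ranged from 58471 to 68429 in ND and from 25414 to 28019 in HD, nearly all of it LRRN4. The log2 fold change of LRRN4 was -1.25 on the deposited values, but -0.58 after quantile and -0.59 after cyclic loess normalization. Of the 4 leukocyte markers PTPRC alone passed, higher in HD on 1 of its 2 probes with the other at 50, with sums of 2559 to 3296 in ND and 2125 to 2273 in HD, and of 5 endothelial markers 0 did. The part of these marker shifts in the values of the identity genes was not tested.

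**Figure D4:**
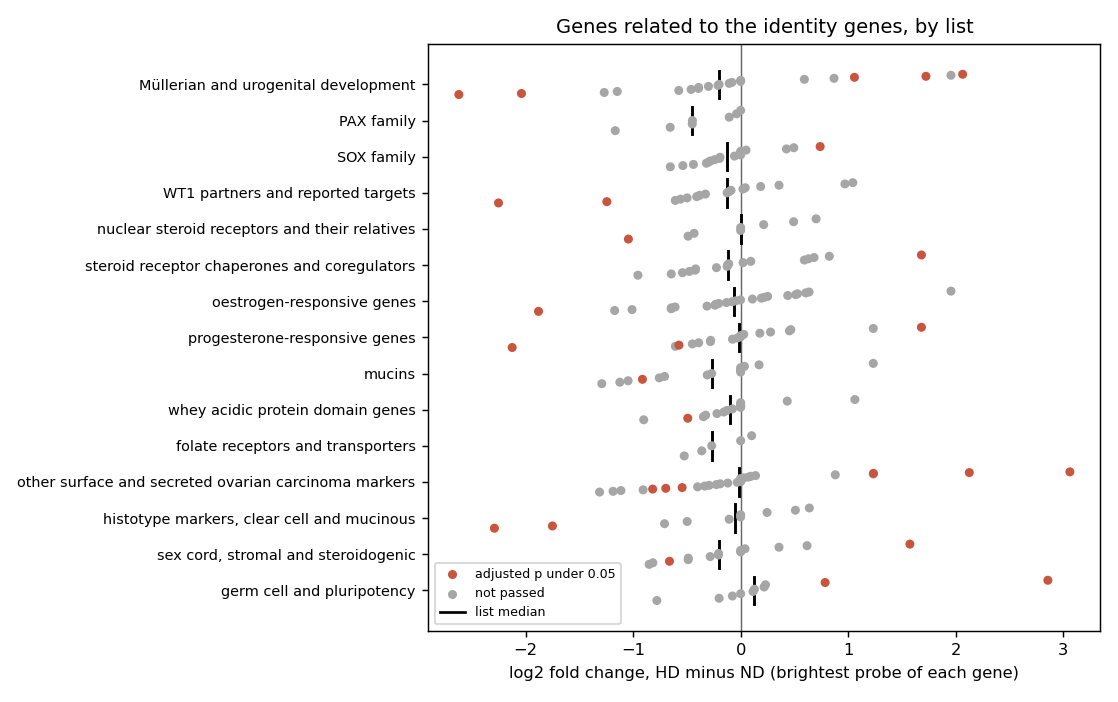
Log2 fold change, HD minus ND, of the brightest probe of each gene in the 15 related lists, with genes of adjusted p under 0.05 in red and the median of each list as a bar. Of the 218 genes 11 are higher and 16 lower by the test, and list medians lie between -0.45 and 0.12.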

How the data were processed

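The 4 TOV112D RNA samples carried Cy5 on 1 channel, on Phalanx Human Whole Genome OneArrays. The deposited values are linear intensity per probe, which the authors read with GenePix and normalized in Rosetta Resolver. Their methods name centring at the 75th percentile, but in the table the arrays share a median and have 75th percentiles of 1783, 1916, 1931 and 1786. Which background correction they used is not stated in these methods. Probes were named from the platform annotation (25893 of 28264 with 1 symbol). All probes were fitted together on the log2 scale, without a pseudocount, with limma 3.58.1 (lmFit and eBayes, HD minus ND) in R 4.3.3, and p-values were adjusted by Benjamini-Hochberg over the whole table. Tested on simulated data, the fit recovered the set fold changes, but the adjusted p passed none of the changed probes, so that a probe that misses this threshold is not shown to be unchanged. The simulation changed a small share of probes and drew their spreads without regard to intensity, unlike these data. It therefore does not size how often the fit misses a change here. The number of arrays limits the precision. A fold against a group at 50 on both arrays is a lower bound on means of log2 values. Such a group adds no scatter to the fit, so that the p-values of these probes may be too small.

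The genes and lists were chosen with earlier results of these data known. All identity gene probes are named, and in each list up to 4 genes that passed, by p, or the 2 with the largest change where none did. AMHR2, CD44, CLDN4 and MUC1, the dimmer probes and further markers were named after their values were seen. Alternatives were other normalizations, a pseudocount of 50, filters on probes at 50, eBayes with a trend or robust, a replicate block and leaving out each array. Gene coordinates and promoter windows are from RefSeq, GRCh38.p14.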

Additional observations from a re-analysis of the deposited data

How the results depend on the processing

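Of 172 values of identity gene probes under the alternatives, 7 newly passed, 6 changed sign and 159 kept their side of the threshold. Of the 159, 134 kept their sign, 18 were 0 in both fits, 4 moved from 0 (PGR's dimmer probe and MUC16) and 3 moved to 0 (WT1, PAX2's dimmer probe and FOLR1's dimmest). Part of this was fixed in advance. The trend, robust, block and filter fits leave log2 fold changes as they were, so that no sign could change there. Nor could leaving out an array turn the sign of a probe whose groups did not overlap. In fits where 0 probes of the whole table passed, 0 could newly pass. The number of probes with an adjusted p under 0.05 was 1 under cyclic loess, under 75th percentile scaling and without probes at 50 on all arrays, and 4 without probes at 50 on any array. It was 0 with quantile normalization, a pseudocount of 50, an intensity trend, robust eBayes and the replicate block. Leaving out each array gave 0 to 0 probes by adjusted p and 0 to 1 by the study's criteria, the 1 being PAX8 without ND replicate 2. ESR1 turned to 0.0071 under cyclic loess and to 0.17 without ND replicate 2 and 0.15 without HD replicate 1 (leave-one-out range -0.21 to 0.17). SOX17 turned to -0.24 without ND replicate 1 and -0.15 without HD replicate 2 (range -0.24 to 0.30), and WFDC2 to 0.0067 without ND replicate 1 (range -0.73 to 0.0067). The cause was not tested. Same-numbered arrays deviated from their group means with a correlation of -0.32, which has the opposite sign when the arrays are crossed. This value does not settle how the arrays were handled, and whether any of them are paired is not known here. The replicate block, and the crossed pairing added after seeing the data, each called 0 identity gene probes and 0 probes of the whole table, as did each fit without an array, so that these adjusted p bear on no single gene. The related lists held 27 genes that passed, 32 with the mean over a gene's probes and 43 with quantile normalization (21 higher, 22 lower), where 23.3% of all genes passed. Robust eBayes called 564 probes of the table against 3912.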
